A study of Mus musculus with 6 samples.

Results

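Endothelial cell markers are genes read mainly in the cells that line blood vessels. The 10 markers described here were taken by symbol from the count table: Kdr, Plvap, Pecam1, Cdh5, Flt1, Tek, Emcn, Esam, Eng and Vwf. All 10 were found among the 21526 gene symbols of the table, and all 10 passed the filter on low counts. RNA came from epithelial cells of the mouse gastric corpus, the acid- and pepsinogen-secreting part of the stomach, in 3 libraries of Yap-activated gastric cancer (Yap-activated) and 3 libraries of normal stomach (Normal). Yap-activated mice had the genotype CluCreERT2;R26rtTA;HA-Yap+, that is, a tamoxifen-dependent Cre at the Clu gene, rtTA, a doxycycline-dependent activator, at Rosa26, and a Yap transgene with an HA tag. Normal mice were WT and carried none of these alleles, and what CreERT2 or rtTA alone does cannot be told apart from what Yap does. All mice, Normal included, were given tamoxifen (2 mg daily, 5 days) and had doxycycline in their food for the final 14 days. The labels give no age or strain and do not say that each library came from its own mouse, so p-values measure the spread between libraries, which may be technical in part.

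The corpus epithelium was freed with EDTA and not cultured, so vessel RNA in these libraries is that of cells that came along with the epithelium. The level of a marker in such bulk RNA can depend on how many endothelial cells were present, on how much of the RNA each contained and on other cells that carry the gene, and fewer cells and less RNA per cell cannot be told apart here. Library totals ran from 25580734 to 44295619 counts in Yap-activated and from 36815754 to 48440033 in Normal libraries. Yap1 stood at 1470 to 3090 CPM (counts divided by the scaled library total) in Yap-activated libraries, against 100 to 106 CPM in Normal libraries. The epithelial marker Epcam had 919, 1050 and 1090 CPM in Yap-activated libraries, against 212, 256 and 214 CPM in Normal libraries, so both groups held epithelium, with the endothelial markers at far lower levels.

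Endothelial cells sense vascular endothelial growth factor (VEGF) through the receptor tyrosine kinases encoded by Kdr and Flt1, and angiopoietins through the receptor encoded by Tek. Their junctions are held by the cadherin encoded by Cdh5 and by the immunoglobulin-like adhesion proteins encoded by Pecam1 and Esam. In the stomach, fenestrated capillaries run along the glands, and Plvap encodes the protein of the diaphragms that span such fenestrae.

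In Yap-activated libraries 8 of the 10 endothelial markers fell, against 29.7% of the 14600 genes tested that were called lower (adjusted p under 0.05 by the quasi-likelihood test of edgeR, with Benjamini-Hochberg adjustment over all genes tested). The largest falls were those of Kdr and Plvap, to 18.3% and 19.4% of the Normal level. Flt1, Cdh5, Pecam1, Emcn, Tek and Eng followed at 29.7% to 45%. Esam, at 59.8% of the Normal level, and Vwf, at 93.7%, did not pass the threshold, and 0 markers rose by edgeR, against 29.8% of all genes tested that were called higher. No marker had a positive log2 fold change, so 0 rose at an unadjusted p under 0.05 as well, and DESeq2 called 0 higher. The median log2 fold change of the 10 was -1.5, beside 0.01 over all genes tested. Levels are TMM-scaled CPM, in which the bulk of genes is aligned between libraries.

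**Figure D1:**
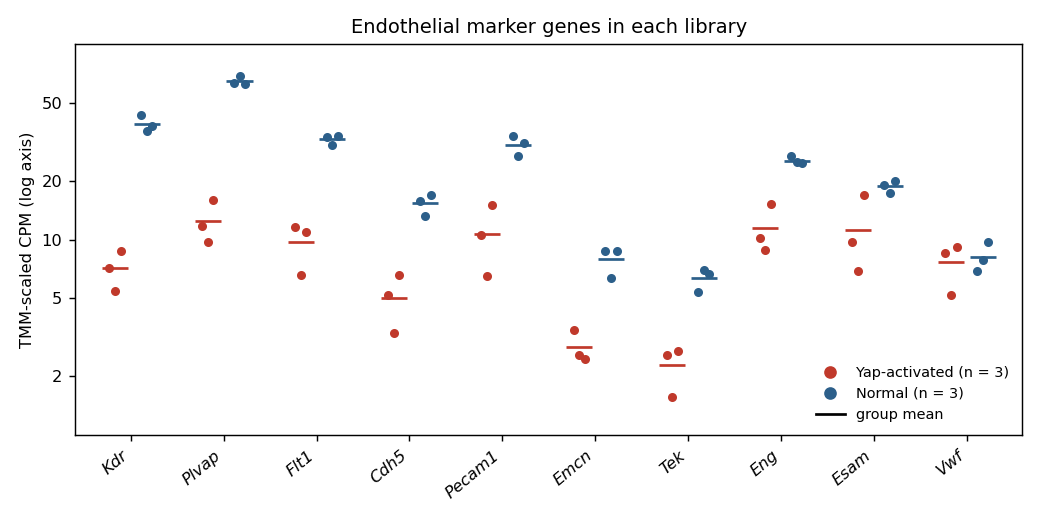
Level of each endothelial marker (TMM-scaled CPM, log axis) in the 3 Yap-activated libraries (red, left in each pair) and the 3 Normal libraries (blue, right), with bars at group means. For Kdr all Yap-activated points lie below 9 CPM and all Normal points above 35 CPM, while for Vwf the points of both groups are mixed.

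Kdr, on chromosome 5 (75932827 to 75978458, minus strand, GRCm38, as for all positions of markers), encodes the main signalling receptor for VEGF. It had 7.18, 5.44 and 8.76 CPM in Yap-activated libraries, against 43.2, 35.8 and 38.0 CPM in Normal libraries, from 212, 228 and 471 reads and 1483, 1506 and 1202 reads. Every Normal library was at least 4.08 times the highest Yap-activated library. Its log2 fold change of -2.45 (SE 0.19, adjusted p = 2.65e-05 by edgeR) was among the lowest, and 4.84% of all genes tested had a lower one.

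Flt1 encodes a second VEGF receptor, which also has a soluble form that binds the ligand without signalling. It lies on the same chromosome (147561604 to 147726011, minus strand). Flt1 had 11.6, 6.61 and 10.9 CPM in Yap-activated libraries, against 33.4, 30.6 and 33.7 CPM in Normal libraries. The groups were separate, with -1.75 as the log2 fold change (SE 0.21, adjusted p = 0.000233, edgeR). The counts are per gene, so the membrane and soluble forms of Flt1 cannot be told apart.

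Tek encodes the angiopoietin receptor Tie2 (chromosome 4, 94739289 to 94874976, plus strand). It had 2.58, 1.57 and 2.68 CPM in Yap-activated libraries, against 5.42, 6.98 and 6.67 CPM in Normal libraries, with 66 to 144 and 186 to 294 reads, the fewest of the 10 markers in Yap-activated libraries 1 and 2. Tek was at -1.48 in log2 fold change (SE 0.27, adjusted p = 0.00207, edgeR), with no overlap of the groups. Eng encodes endoglin, a coreceptor for ligands of the TGF-beta and BMP family, on the plus strand (chromosome 2, 32646595 to 32682669). Eng had 10.2, 8.80 and 15.2 CPM in Yap-activated libraries, against 26.6, 25 and 24.5 CPM in Normal libraries. Its log2 fold change of -1.15 (SE 0.20, adjusted p = 0.00184, edgeR) was the smallest of the 8 that passed. Of the exon bases of Eng, 1.51% overlap Fpgs on the opposite strand, and no source used here states the strand setting of the counting.

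Plvap (chromosome 8, 71497765 to 71511752, minus strand) had the highest mean level of the 10 in Normal libraries. It had 11.7, 9.76 and 15.9 CPM in Yap-activated libraries, against 63.1, 68.5 and 62.1 CPM in Normal libraries. All Yap-activated libraries stood far below all Normal ones, with a log2 fold change of -2.37 (SE 0.18, adjusted p = 2.62e-05, edgeR). Emcn encodes endomucin, a sialomucin at the luminal surface of veins and capillaries, on the plus strand (chromosome 3, 137341067 to 137432185). It had 3.46, 2.58 and 2.45 CPM in Yap-activated libraries, against 8.71, 6.34 and 8.76 CPM in Normal libraries. Again all Yap-activated libraries were lower, with a log2 fold change of -1.49 (SE 0.24, adjusted p = 0.00104, edgeR).

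Among the junction genes, Cdh5 encodes VE-cadherin (chromosome 8, 104101625 to 104144511, plus strand). Cdh5 had 5.19, 3.34 and 6.60 CPM in Yap-activated libraries, against 15.8, 13.2 and 16.9 CPM in Normal libraries (log2 fold change -1.60, SE 0.26, adjusted p = 0.0011, edgeR). Pecam1 encodes an adhesion protein of endothelial junctions that leukocytes and platelets also carry, on the minus strand (chromosome 11, 106654217 to 106750628). Pecam1 had 10.5, 6.49 and 15.1 CPM in Yap-activated libraries, against 33.7, 26.6 and 31.0 CPM in Normal libraries (log2 fold change -1.51, SE 0.29, adjusted p = 0.00316, edgeR). For both genes the highest Yap-activated library, replicate 3, was below the lowest Normal library.

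Esam, the other junction gene, is on the plus strand (chromosome 9, 37528078 to 37538319). It had 9.76, 6.89 and 17 CPM in Yap-activated libraries, against 19, 17.3 and 20 CPM in Normal libraries. The groups just failed to meet, with Yap-activated replicate 3 close to Normal replicate 2. Esam was at -0.74 in log2 fold change (SE 0.30, adjusted p = 0.0685, edgeR), with a 95% interval from -1.45 to -0.03. Without Yap-activated replicate 3 it was -1.17 and passed (adjusted p = 0.00164, edgeR), as it did with the replicate number as a block (-0.84, adjusted p = 0.0257) and with DESeq2 (-0.73, adjusted p = 0.0335); over all alternatives its adjusted p reached up to 0.516.

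Vwf encodes von Willebrand factor, the clotting protein stored in endothelial granules and also made by megakaryocytes, on the plus strand (chromosome 6, 125546774 to 125686679). It had 8.54, 5.18 and 9.21 CPM in Yap-activated libraries, against 6.87, 7.84 and 9.77 CPM in Normal libraries. The groups overlapped. Vwf was at -0.09 in log2 fold change (SE 0.26, adjusted p = 0.767, edgeR), and its 95% interval of -0.68 to 0.50 runs from 0.622 to 1.41 times the Normal level. The sign turned to 0.39 with library totals alone as the scaling. This interval does not reach the fall of Kdr, Plvap or Flt1, whose own intervals end at -2.01, -1.95 and -1.27.

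Yap-activated and Normal values were apart for 9 of the 10 markers, all lower in Yap-activated libraries, where 34.4% of all genes tested were lower without overlap. Yap-activated libraries varied among themselves in a shared order: replicate 3 was the highest for 8 markers and replicate 2 the lowest for 9. The highest Yap-activated library was 1.41 to 2.46 times the lowest, depending on the marker, and the highest Normal library 1.09 to 1.42 times the lowest. Summed over the 10 markers, levels were 80.6, 56.7 and 104 CPM in Yap-activated libraries, against 256, 238 and 251 CPM in Normal libraries.

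To compare markers with each other, levels were divided by exon length, which gives CPM per kilobase. In Yap-activated libraries the order of levels ran from Plvap (6.27 ± 1.58 CPM per kilobase), Esam (3.91 ± 1.82), Eng (2.82 ± 0.831) and Pecam1 (1.72 ± 0.692) through Cdh5, Kdr and Flt1 to Emcn, Tek and Vwf (0.523 ± 0.102, 0.483 ± 0.130 and 0.476 ± 0.134; SD, n = 3). In Normal libraries Plvap again stood first, at 32.5 ± 1.73 CPM per kilobase, followed by Esam (6.55 ± 0.476), Eng (6.27 ± 0.271), Pecam1 (4.89 ± 0.575), Kdr (4.32 ± 0.421), Cdh5, Flt1, Emcn and Tek, with Vwf last at 0.508 ± 0.0919 (SD, n = 3). In Yap-activated libraries every pair of neighbours in this order overlapped. In Normal libraries the neighbours that overlapped were Esam and Eng, Pecam1 and Kdr, Kdr and Cdh5, and Emcn and Tek. All markers were read in the same libraries, and within single libraries 6 of the 9 neighbouring pairs kept their order in all 3 Yap-activated libraries and 7 of 9 in all 3 Normal libraries. The pairs that did not were Kdr and Flt1, Emcn and Tek, and Tek and Vwf in Yap-activated libraries, and Esam and Eng, and Emcn and Tek, in Normal libraries. Exon length was taken over all annotated exons of a gene, which lowers the value of genes with long alternative exons, such as Flt1.

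Markers were also set against Pecam1 within the same library, a ratio that no scaling of libraries can change. Leukocytes and platelets also carry Pecam1, and their part in these ratios was not tested. Cdh5, Flt1, Tek and Emcn kept ratios to Pecam1 that overlapped between the groups. Kdr stood at 0.686, 0.838 and 0.581 times Pecam1 in Yap-activated libraries, against 1.28, 1.35 and 1.22 times in Normal libraries. Plvap was lower relative to Pecam1 too, at 1.12, 1.5 and 1.06 times in Yap-activated libraries and 1.87, 2.58 and 2.00 times in Normal libraries. Ratios of the other 3 non-overlapping markers were higher in Yap-activated libraries. Pecam1 itself fell, and 10.2% of all genes tested had a lower log2 fold change than Pecam1. Genes that fell less than Pecam1, or not at all, have higher ratios to it, so a higher ratio is not particular to these markers. The share of all genes whose ratio to Pecam1 did not overlap was not computed. Vwf was at 0.816, 0.798 and 0.610 times Pecam1 in Yap-activated libraries, against 0.204, 0.295 and 0.315 times in Normal libraries, a difference of 1.46 on the log2 scale. Esam and Eng differed by 0.74 and 0.40 on that scale, and Kdr and Plvap by -0.89 and -0.81. Each of these 5 differences had a 2-sided exact permutation p of 0.1, the smallest that 3 against 3 libraries can give, and an adjusted p of 0.18 over the 9 ratios. This test cannot reach the threshold at this number of libraries.

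**Figure D2:**
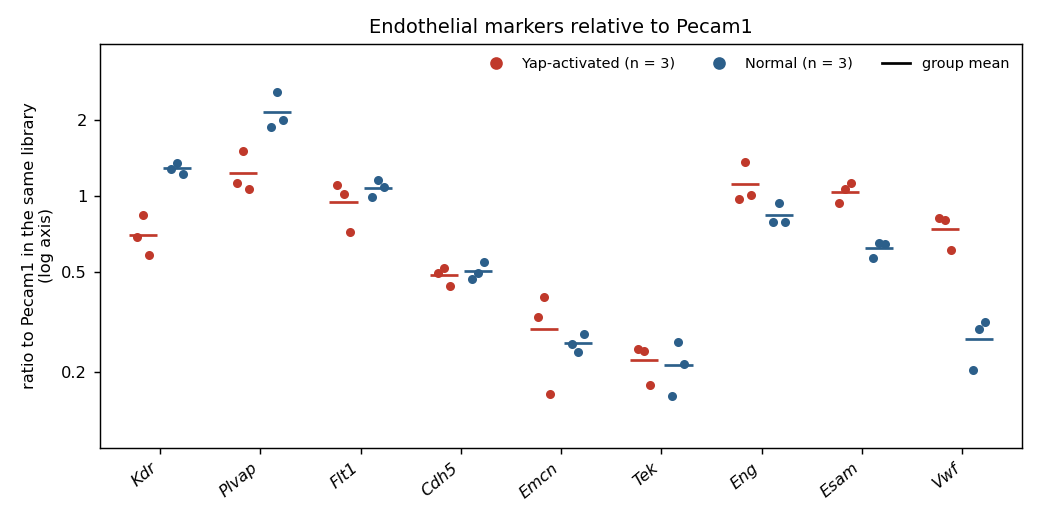
Level of each of the other 9 markers divided by Pecam1 in the same library (counts ratio, log axis), for 3 Yap-activated (red, left) and 3 Normal libraries (blue, right), with bars at group means. Kdr and Plvap sit lower and Eng, Esam and Vwf higher in all Yap-activated libraries, and the points of Flt1, Cdh5, Emcn and Tek are mixed.

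Promoter sequence was at hand for 5 of the 10 markers in RefSeq's table (GRCm38.p6). Members of the ETS family of transcription factors bind sites around GGAA in many endothelial genes, and TEAD factors, the DNA-binding partners of Yap, bind GGAATG. The 250 bases before the start of Kdr, with the largest fall, and of Flt1 and Emcn, with middling falls, are shown with every match, on either strand, to AGGAAG or to the related CGGAAG or to the TEAD site GGAATG in capitals. The windows are chr5:75978456-75978705 on the minus strand for Kdr, chr5:147726012-147726261 on the minus strand for Flt1 and chr3:137340828-137341077 on the plus strand for Emcn.
Kdr: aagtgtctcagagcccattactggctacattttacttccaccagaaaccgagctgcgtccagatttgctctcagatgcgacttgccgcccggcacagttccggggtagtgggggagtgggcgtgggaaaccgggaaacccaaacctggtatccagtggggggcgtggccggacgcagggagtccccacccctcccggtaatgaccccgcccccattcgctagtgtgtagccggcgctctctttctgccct
Flt1: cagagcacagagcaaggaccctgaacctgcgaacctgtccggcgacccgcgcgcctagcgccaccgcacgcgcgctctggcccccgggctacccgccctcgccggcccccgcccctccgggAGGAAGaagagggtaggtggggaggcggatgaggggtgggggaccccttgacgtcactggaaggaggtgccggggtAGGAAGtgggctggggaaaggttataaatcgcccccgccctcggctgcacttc
Emcn: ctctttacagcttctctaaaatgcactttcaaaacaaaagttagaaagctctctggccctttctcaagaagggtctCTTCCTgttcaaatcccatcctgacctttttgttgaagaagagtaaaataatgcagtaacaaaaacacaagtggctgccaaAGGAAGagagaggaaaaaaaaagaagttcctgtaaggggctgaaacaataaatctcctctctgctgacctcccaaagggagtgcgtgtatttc

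AGGAAG was found 2 times each in the windows of Flt1, Emcn and Eng, and 0 times in those of Kdr and Tek, while 29.5% of the 32851 promoter windows in the table hold it. CGGAAG, which 13.6% of all windows hold, and GGAATG, which 12.6% hold, were found in 0 of the 5. AGGAAG and CGGAAG share the bases GGAAG, and GGAATG shares GGAA with both. These matches describe the letters of these windows only, and markers with and without AGGAAG are both among those that fell.

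A wider list of 22 other endothelial genes, all tested, gave a similar picture. In it 16 genes fell (72.7%, beside 29.7% of all genes tested), 1 rose (4.55%, beside 29.8%) and 5 did not pass. The median log2 fold change of the 22 was -1.40. Of the exon bases of Ramp2, which fell, 33.4% overlap Vps25 on the same strand. Ptprb encodes a receptor phosphatase that acts on Tek and VE-cadherin. Ptprb had 10.8, 7.32 and 13.1 CPM in Yap-activated libraries, against 29.1, 27.0 and 31.8 CPM in Normal libraries (log2 fold change -1.49, SE 0.21, adjusted p = 0.00055, edgeR). Clec14a, an endothelial surface protein with a lectin-like domain, was at -2.37 (SE 0.27) and Tie1, a partner receptor of Tek, at -1.13 (SE 0.20). The lowest of the list was She at -2.79 (SE 0.37). Here and below, genes outside the naming rule were picked after their values were seen. Among them are She, Tie1, Ramp2, Ecscr and the 5 that did not pass.

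Ecscr, an endothelial regulator of cell migration, was the 1 gene that rose. It had 7.96, 4.96 and 7.40 CPM in Yap-activated libraries, against 2.65, 1.69 and 2.02 CPM in Normal libraries (log2 fold change 1.68, SE 0.28, adjusted p = 0.00138, edgeR). All Yap-activated libraries were higher, although 3.54% of its exon bases overlap a gene on the opposite strand. The 5 that did not pass were S1pr1 at -0.80, Robo4 at -0.69, Egfl7 at -0.02, Cldn5 at 0.04 and Nos3, the endothelial nitric oxide synthase gene, at 0.16. Robo4 passed without Yap-activated replicate 3 (-0.89, adjusted p = 0.0303, edgeR), without Normal replicate 2 (-0.87, adjusted p = 0.0443), with the replicate block (-0.70, adjusted p = 0.034) and with DESeq2 (-0.68, adjusted p = 0.0432), and S1pr1 passed with the block (-0.88, adjusted p = 0.0352). Nos3 ranged from 1.29 to 2.4 CPM in Yap-activated libraries and from 1.66 to 1.85 CPM in Normal libraries, and 25.2% of its exon bases overlap an antisense gene.

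**Figure D3:**
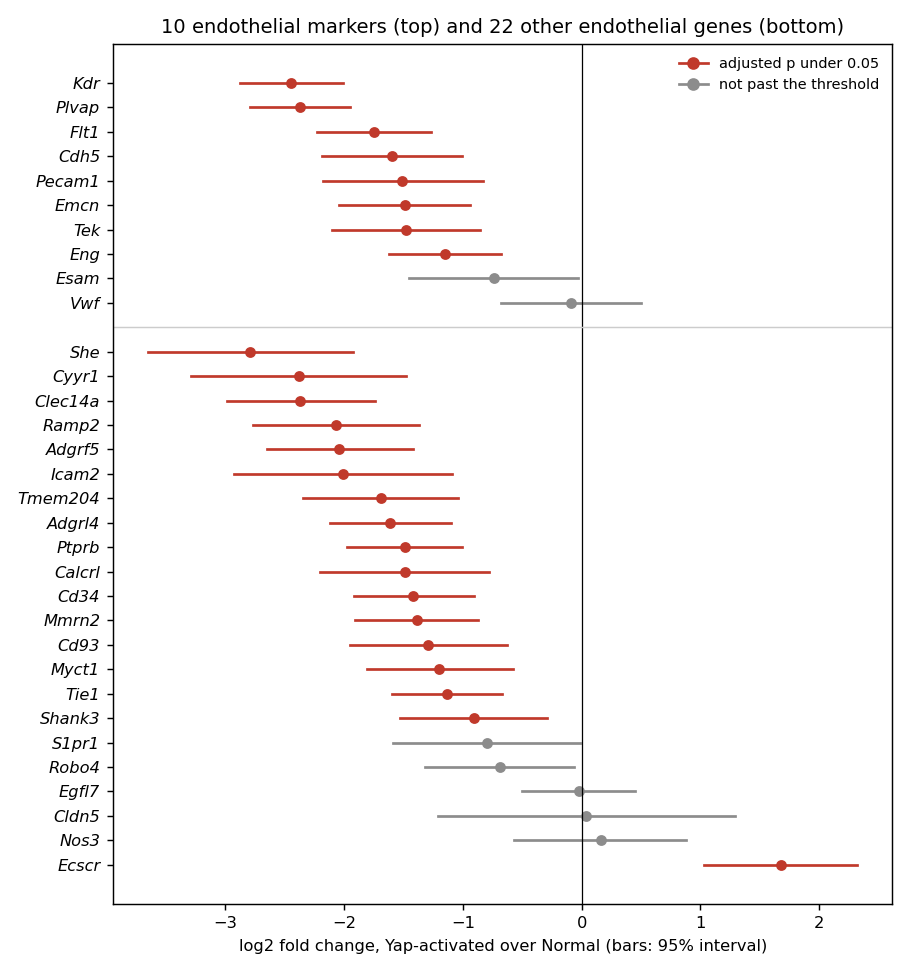
Log2 fold change of Yap-activated over Normal with its 95% interval for the 10 endothelial markers (top) and 22 other endothelial genes (bottom), red where the adjusted p is under 0.05 and grey elsewhere. Most points lie between -2.79 and -0.91, Vwf, Egfl7, Cldn5 and Nos3 lie at the zero line, and Ecscr alone lies to its right past the threshold.

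Among 12 transcription factor genes of endothelium, 3 fell, 2 rose and 7 did not pass. These shares of 25% and 16.7% are below those of all genes tested, 29.7% lower and 29.8% higher. Sox18 fell by 1.14 on the log2 scale (SE 0.21). Erg, an ETS factor of mature endothelium, had 2.07, 2.34 and 3.53 CPM in Yap-activated libraries, against 6.67, 4.35 and 4.49 CPM in Normal libraries, a log2 fold change of -0.96 (adjusted p = 0.0238, edgeR). Erg no longer passed without Yap-activated replicate 1 (adjusted p = 0.0672), Yap-activated replicate 2 (0.054) or Normal replicate 1 (0.0932), and with library totals alone (-0.45, adjusted p = 0.206). Ets1 and Sox7 rose by 1.78 and 2.14, and Mecom fell by 1.47. Mecom stood at 96.3 to 104 CPM in Yap-activated and at 260 to 303 CPM in Normal libraries, above every endothelial marker in Normal libraries. Ets1 stood at 38.7 to 43.7 CPM in Yap-activated libraries, above every endothelial marker there. Which cells carried the reads of these factors was not tested.

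Genes that differ along the vessel tree were taken as a list of 14, of which 6 fell and 8 did not pass. The share that fell was 42.9%, beside 29.7% of all genes tested. Cd36, a fatty acid transporter of capillaries that other cells also express, had 6.88, 1.79 and 4.54 CPM in Yap-activated libraries, against 93.0, 84.9 and 137 CPM in Normal libraries (log2 fold change -4.60, SE 0.48). Car4, a carbonic anhydrase of capillary surfaces, fell by 2.85 (SE 0.39), Fbln5 by 2.48 (SE 0.26) and Sema3g, an arterial semaphorin, by 1.99 (SE 0.33). Nr2f2, a factor of venous identity that also acts in other cells, fell by 1.02 (SE 0.13).

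Ligands of the Kdr, Flt1 and Tek receptors belong to a list of angiogenic ligand genes, of which 17 were tested. In it 8 rose (47.1%, beside 29.8% of all genes tested), 3 fell (17.6%, beside 29.7%) and 6 did not pass, with a median log2 fold change of 0.69. Vegfb, a ligand of Flt1, had 9.49, 9.11 and 10.1 CPM in Yap-activated libraries, against 84.7, 80.8 and 99.1 CPM in Normal libraries (log2 fold change -3.20, SE 0.12, adjusted p = 1.21e-06, edgeR). The gap between the groups was far wider than the spread within either. Pgf, the placental growth factor gene and another ligand of Flt1, had 2.47, 8.49 and 19.0 CPM in Yap-activated libraries, against 0.845, 0.998 and 1.23 CPM in Normal libraries (log2 fold change 3.29, SE 0.71, adjusted p = 0.00618, edgeR), and its log2 fold change without Yap-activated replicate 3 was 2.44.

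Vegfa, the main ligand of Kdr, had 168, 365 and 563 CPM in Yap-activated libraries, against 219, 221 and 239 CPM in Normal libraries. Yap-activated replicate 1 stood below all Normal libraries and the other two above them. Vegfa was at 0.69 in log2 fold change (SE 0.39, adjusted p = 0.166, edgeR), and without Yap-activated replicate 1 it was 1.04 and passed (adjusted p = 0.00259), as it did with library totals alone (1.19, adjusted p = 0.0324). Vegfd, a ligand of Kdr and of the lymphatic receptor in human, rose by 1.43 (SE 0.21), and Vegfc was at -0.85 (adjusted p = 0.0565, edgeR). Vegfc passed without Yap-activated replicate 1 (-1.09, adjusted p = 0.0334, edgeR) and with voom (-0.90, adjusted p = 0.0397). Pdgfb, which endothelial cells use to recruit pericytes, rose by 1.69 (SE 0.10), with 81 to 95.1 CPM in Yap-activated and 26.4 to 27.7 CPM in Normal libraries.

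The angiopoietin genes Angpt1 and Angpt2 fell, Angpt1 on only 11 to 21 reads per Yap-activated library. Angpt2, a context-dependent ligand of Tek that endothelial cells store and release, had 1.36, 1.05 and 1.30 CPM in Yap-activated libraries, against 8.80, 9.55 and 12.8 CPM in Normal libraries (log2 fold change -3.07, SE 0.24, adjusted p = 2.95e-05, edgeR). Angpt1, the agonist of Tek made largely by perivascular cells, had 0.373, 0.310 and 0.391 CPM in Yap-activated libraries, against 1.98, 0.855 and 1.42 CPM in Normal libraries (log2 fold change -1.97, SE 0.40). Angptl4, Adm and the inhibitor gene Thbs1 rose, by 3.92, 3.41 and 3.08. Adm, the adrenomedullin gene, was at 13.9 CPM in Yap-activated replicate 1, near the Normal libraries, and at 140 and 210 CPM in the other two. Adm was at 2.77 without Yap-activated replicate 3, and did not pass if Normal replicate 3 was left out (adjusted p = 0.0566), with the replicate block (0.0567) or with voom (0.1).

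**Figure D4:**
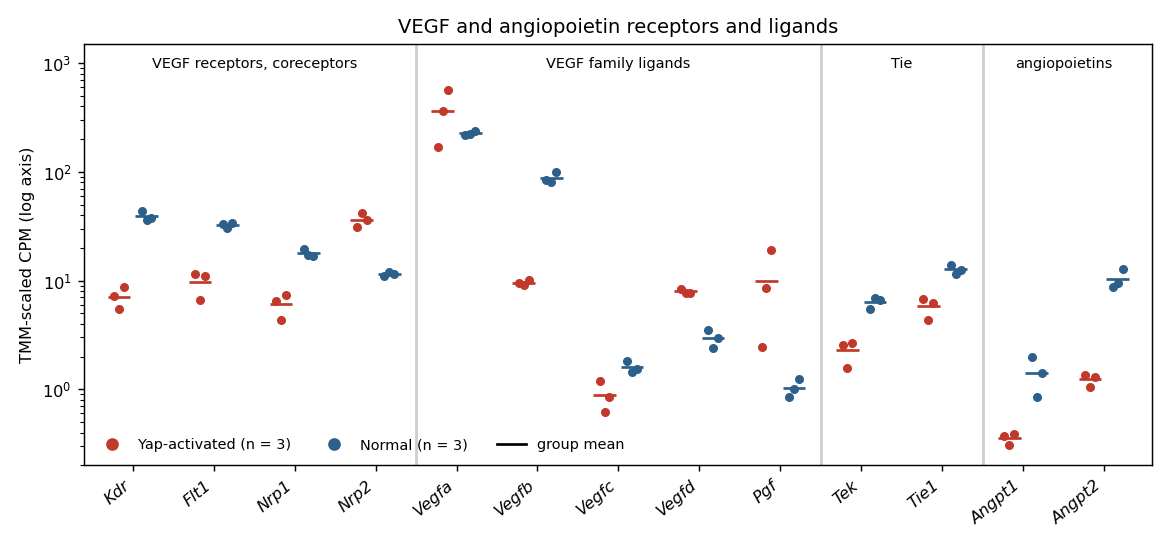
Levels (TMM-scaled CPM, log axis) of VEGF receptors and coreceptors, VEGF family ligands, Tie receptors and angiopoietins in 3 Yap-activated (red, left) and 3 Normal libraries (blue, right), with bars at group means. Kdr, Flt1, Nrp1, Vegfb, Vegfc, Tek, Tie1, Angpt1 and Angpt2 are lower in all Yap-activated libraries, although Vegfc did not pass the threshold. Nrp2, Vegfd and Pgf are higher in all Yap-activated libraries, while the points of Vegfa are mixed.

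Of 13 coreceptor and partner genes 3 fell, 4 rose and 6 did not pass, shares of 23.1% and 30.8% that are near those of all genes tested. Nrp1, the coreceptor of Kdr, had 6.47, 4.37 and 7.44 CPM in Yap-activated libraries, against 19.4, 17.3 and 16.9 CPM in Normal libraries (log2 fold change -1.55, SE 0.21, adjusted p = 0.000463, edgeR). Nrp2, a coreceptor in lymphatic and venous vessels that epithelium can also express, rose by 1.66 (SE 0.14). Acvrl1, the endothelial receptor that works with endoglin, was at -0.70 (adjusted p = 0.106, edgeR), and at -1.19 without Yap-activated replicate 3, where it passed (adjusted p = 0.00129). F8, the clotting factor that von Willebrand factor carries in blood, fell by 1.84 (SE 0.37), whereas Vwf did not pass. Ctnnb1, which binds cadherins in epithelium as well as in endothelium, rose by 0.81 (SE 0.14).

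Of 9 tested tip cell or activated endothelium genes 3 fell (33.3%, beside 29.7% of all genes tested) and 4 rose (44.4%, beside 29.8%). Esm1, a gene of tip cells, fell by 1.08 (SE 0.22) and Angpt2 is given above. Dll4 rose by 1.11 (SE 0.25), Cxcr4 by 3.16 (SE 0.29) and Icam1, an adhesion molecule for leukocytes, by 3.92 (SE 0.14). Which cells carried the reads of these genes was not tested. Icam1 reached 51.8 to 59.7 CPM in Yap-activated libraries, above every endothelial marker there, and 3.23 to 4.09 CPM in Normal libraries. Of 7 lymphatic endothelial genes 3 rose (42.9%, beside 29.8% of all genes tested) and 4 did not pass. Pdpn, which epithelial and stromal cells also express, rose by 1.39 (SE 0.11), Ccl21a by 2.85 (SE 0.50) and Mmrn1 by 1.92 (SE 0.68). Ccl21a and Mmrn1 rest on few reads. Ccl21a had 14, 22 and 15 reads in Yap-activated libraries and 2 in each Normal library. Mmrn1 had 15 to 38 reads in Yap-activated and 1 to 10 in Normal libraries. Lyve1, at -0.64, did not pass (adjusted p = 0.154, edgeR), but did without Yap-activated replicate 3 (-1.01, adjusted p = 0.0335).

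Markers of other cells that an epithelial preparation can hold were read from lists of the same kind. Of 9 fibroblast genes 6 fell (66.7%, beside 29.7% of all genes tested) and 3 did not pass. Their median log2 fold change was -1.58, close to that of the endothelial markers. The collagen genes Col3a1 and Col1a2 fell by 1.68 and 1.58 (SE 0.27 and 0.21), and the summed level of the list was 425 to 689 CPM in Yap-activated libraries, against 967 to 1420 CPM in Normal libraries. Of 9 mural cell genes 2 fell, 1 rose and 6 did not pass, shares of 22.2% and 11.1% that are below those of all genes tested. Rgs5, a pericyte gene, fell by 1.41 (SE 0.25), while Pdgfrb ranged from 10.9 to 21 CPM in Yap-activated and from 13.1 to 20.3 CPM in Normal libraries. Anpep, the other mural gene that fell, was at 7.79 to 15.4 CPM in Yap-activated and 240 to 410 CPM in Normal libraries, and epithelial cells express it as well. Of 8 smooth muscle genes 3 fell (37.5%, beside 29.7% of all genes tested) and 5 did not pass. Their median log2 fold change was -0.42, and the 5 that did not pass lay between -0.68 and 0.71. Those that fell included Lmod1 at -1.54 (SE 0.27) and Myh11 at -1.17, a call lost without each library but Yap-activated replicate 3, where it was at -1.75.

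Of 9 leukocyte genes 4 rose (44.4%, beside 29.8% of all genes tested), Cd68 by 1.45 (SE 0.31) among them, and 5 did not pass. The summed level was 152 to 554 CPM in Yap-activated libraries, against 132 to 140 CPM in Normal libraries. Lyz2 rose by 1.25, a call lost without each library but Yap-activated replicate 2. Among Yap-activated libraries replicate 3 was the highest for the leukocyte sum and replicate 2 the lowest, as for most endothelial markers. Sums of the other endothelial, lymphatic, smooth muscle, fibroblast and parietal lists had this order too. Those of the transcription factor, vessel tree, tip cell or activated endothelium, angiogenic ligand and coreceptor lists did not. Nor did those of the mural, platelet, red cell, epithelial and chief cell lists. Platelet genes, which bear on Vwf and Pecam1, summed to 13.6 to 41.8 CPM in Yap-activated libraries, against 5.56 to 8.91 CPM in Normal libraries. Without Ppbp the sum was 6.54 to 13.5 CPM in Yap-activated and 5.44 to 8.62 CPM in Normal libraries, and the groups overlapped. Of 4 tested platelet genes 2 rose (50%, beside 29.8% of all genes tested). Ppbp rose by 5.99 (SE 0.71, and 5.13 without Yap-activated replicate 1) and Gp5 by 2.28 (SE 0.59). Gp5 had 31 to 45 reads in Yap-activated and 1 to 10 reads in Normal libraries. Pf4 at 0.12 and Itga2b at 0.60 did not pass (adjusted p = 0.862 and 0.0966, edgeR), although Itga2b passed without Yap-activated replicate 2 (0.76, adjusted p = 0.0428) and with library totals alone (1.10, adjusted p = 0.00657). Gp1bb had 0 counts in all 6 libraries, while Gp9, too low to be tested, had 2 to 8 reads in Yap-activated and 7 to 12 in Normal libraries. Why Gp1bb was not read was not tested. The red cell gene Hbb-bs ranged from 14.5 to 114 CPM in Yap-activated and from 11.5 to 38.6 CPM in Normal libraries, and neither it nor Alas2 passed (adjusted p = 0.175 and 0.114, edgeR). Alas2 passed without Yap-activated replicate 2 (1.97, adjusted p = 0.0175, edgeR), with DESeq2 (1.54, adjusted p = 0.0477) and with library totals alone (2.01, adjusted p = 0.0404). In the epithelial list 4 of 6 genes rose (66.7%, beside 29.8% of all genes tested), such as Epcam by 2.17 (SE 0.15) and Krt19 by 1.04. All 5 parietal and 3 tested chief cell genes fell, beside 29.7% of all genes tested. Among them were Kcne2 at -9.28, Atp4a at -9.65, Pga5 at -9.22 and Pgc at -9.37. The part of these other cells in the fall of the endothelial markers was not tested.

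**Figure D5:**
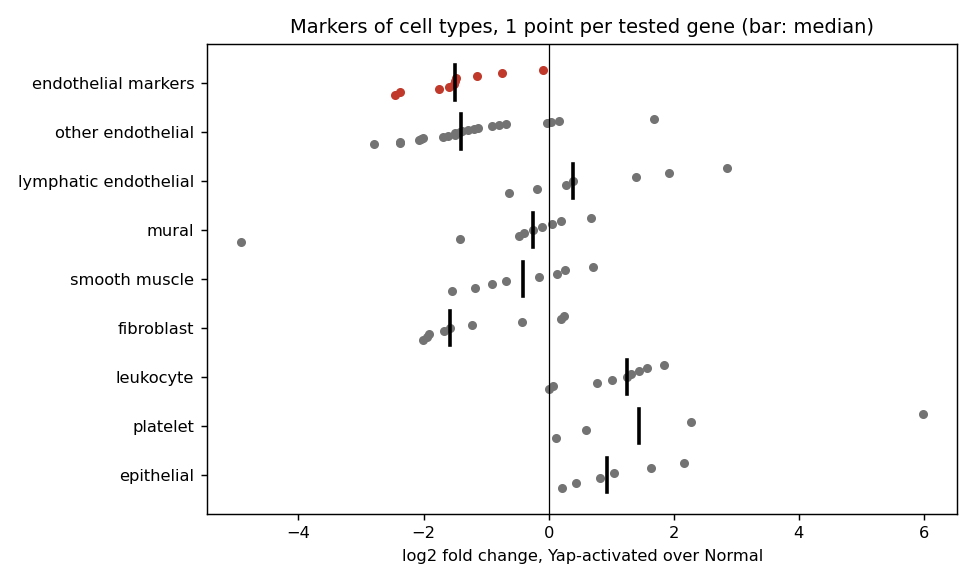
Log2 fold change of Yap-activated over Normal for each tested gene of 9 marker lists, with a bar at the list's median. The endothelial markers (red) have a median of -1.5 and the fibroblast list one of -1.58, while the leukocyte and epithelial lists lie to the right of zero.

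Genes with the pattern most like the endothelial markers were sought over the 6 libraries, by Pearson correlation of log2 CPM with the mean of the 10 markers among 13033 genes. Outside all lists the most alike were C1ra, Nod1, Nog, Armcx4 and Ntn4, with correlations of 0.998, 0.998, 0.9976, 0.9972 and 0.9969. Ntn4 had 6.30, 3.91 and 8.44 CPM in Yap-activated libraries, against 32.2, 30.6 and 40.4 CPM in Normal libraries. Of the 50 most alike genes, 7 are in the endothelial lists, with Ptprb first of all at 0.9994, and Nrp1 is an eighth list gene. These values describe 6 libraries in 2 groups, and any gene that fell and shares the order of the Yap-activated libraries scores high.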

How the data were processed

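The authors deposited raw counts, whole numbers of reads for each gene symbol, in all 6 libraries. Per the submitters' processing notes, STAR 2.4.2a and DESeq2 were used, with GRCm38 (mm10) as the genome build; no source used here states the counting program, strand setting or annotation. The labels' protocols name a stranded poly(A) kit and paired 50 bp reads.

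Counts were tested with edgeR 4.0.16 in R 4.3.3 over all 14600 genes kept by filterByExpr (minimum count 10), after TMM scaling, with robust quasi-likelihood F-tests (Yap-activated over Normal) and Benjamini-Hochberg adjustment at 0.05. The SE is the log2 fold change over the square root of F. DESeq2 1.42.0 and limma 3.58.1 (voom) were alternatives. The test was checked on simulated counts, with far fewer changed genes than were called here. Among the calls there, the share of unchanged genes was above 0.05, so calls near the threshold need care.

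Positions and exon lengths come from GENCODE release M21, which holds 21523 of the 21526 symbols, and promoters from RefSeq. Likeness used log2(CPM + 0.5) of genes with a mean of at least 1 CPM. Members and lists were chosen with earlier results of these data known. Named genes are all members, the member of each list with the smallest p and the one with the highest level, 6 ligand or receptor genes, and the 5 most alike genes.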

Additional observations from a re-analysis of the deposited data

How the results depend on the processing

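The number of endothelial markers called lower was 8 or 9 under every alternative run. Alternatives were other scalings, filters, dispersions, DESeq2, voom, a replicate block and leaving out each library. Of all genes tested, 15.7% (library totals alone) to 30.7% (at least 1 CPM in 3 libraries) were called lower under these alternatives. It was 9 with DESeq2, with the replicate block and without Yap-activated replicate 3, Esam being the added call, and 0 markers were called higher in any. Other endothelial genes called lower ranged from 15 to 18, with 1 called higher. With library totals alone the median log2 fold change of all genes moved to 0.5. The share of calls that were higher was then 76.6%, beside 50% with TMM. The median of the 10 markers was -1 under this scaling, and 8 were called lower, beside 15.7% of all genes tested.

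Direction turned for genes near 0. With library totals alone Vwf was at 0.39, Egfl7 at 0.47 and Pdgfrb at 0.40, and with upper quartile scaling Egfl7 was at 0.03. Pf4 was at -0.14 with voom and -0.09 with the replicate block. Leaving out 1 library gave -0.25 to 0.12 for Vwf, -0.14 to 0.16 for Egfl7, -0.02 to 0.38 for Nos3, -0.29 to 0.41 for Cldn5, -0.42 to 0.08 for Pdgfrb and -0.18 to 0.54 for Pf4; the cause was not tested.

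The replicate numbers are not stated to pair libraries. Deviations of same-numbered libraries from their group means correlated at 0.0739, 0.0382 and 0.0799. Each library correlated best with its own number, but Yap-activated replicate 2 was at 0.0373 with Normal replicate 3. Correlations this small do not tell whether libraries were paired. With the replicate block 8561 genes were called, against 8682 without it. Depth limits the low markers: Tek rests on 66 to 144 reads per Yap-activated library.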
